A study of Mus musculus with 160 samples.

Results

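Tibialis muscle of R6/2 mice given 100 mg/kg of CHDI-00390576 was compared with the same muscle of R6/2 mice given vehicle. The comparison holds 16 of the 160 RNA-seq libraries in the series. They were chosen by title, as all libraries labelled tibialis, R6/2 and either 100 mg/kg or vehicle, which gave 8 libraries at 100 mg/kg and 8 on vehicle. CHDI-00390576 is an inhibitor of class IIa histone deacetylases. Every mouse in both groups carries the R6/2 transgene Tg(HDexon1)62Gpb on a C57BL/6J background. This transgene expresses the first exon of the human huntingtin gene with an expanded CAG repeat and is a model of Huntington's disease. Doses were oral and b.i.d., and each group holds 4 males and 4 females. The labels name 8 separate mice per group. R6/2 tibialis at 30 mg/kg and wild-type tibialis on vehicle, 8 libraries each, served as further groups. No wild-type mouse was given the inhibitor, so the effect of 100 mg/kg without the transgene was not analysed here. Neither ages nor the length of dosing nor the hour of tissue collection is stated in the labels.

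Class IIa histone deacetylases (Hdac4, Hdac5, Hdac7 and Hdac9 in the mouse) have weak enzymatic activity of their own and act largely as scaffolds that bring corepressors to transcription factors of the MEF2 family. In skeletal muscle they move between nucleus and cytoplasm with nerve activity. After denervation, Hdac4 is known to repress Dach2 and so to allow myogenin, the acetylcholine receptor subunits and the ubiquitin ligases of muscle atrophy to be expressed. The tibialis is a predominantly fast, glycolytic leg muscle.

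Total expected counts ran between 34.7 and 37.4 M in the 100 mg/kg libraries and between 33.4 and 39.04 M in the vehicle libraries. All 12 muscle fibre markers were detected in all 16 libraries, at 3.14 FPKM for the slow myosin Myh7 at the lowest and 7494 FPKM for the fast troponin Tnnt3 at the highest. The long-transcript share is the percentage of non-mitochondrial counts on genes whose longest annotated transcript exceeds 5000 bases. It was 17.6% in male 1 at 100 mg/kg and 25.6 to 28.1% in the 7 others of that group, against 26.5 to 30.7% on vehicle. This measure was chosen after seeing the data, and the group means differed by -2.41 percentage points. Transcripts of neutrophil granules and bone, a list also chosen after seeing the data, summed to a mean of 154 ± 101 CPM (unscaled counts per M) at 100 mg/kg and 53.3 ± 48.9 CPM on vehicle (SD, n = 8 each). Exact permutation tests within sex gave an adjusted p of 0.0796 for this sum and for the long-transcript share. Both measures were picked from these data, so these p-values are no independent support. Column headers of the count table also carry a library tag whose meaning is not given. Its lower number block holds 4 libraries at 100 mg/kg and 3 on vehicle, its higher block 4 and 3, and 2 vehicle libraries have a D suffix. Values without male 1, or with long transcripts or the tag as a covariate, are given beside many of the results that they move.

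No gene passed an adjusted p of 0.05 between 100 mg/kg and vehicle among the 15760 genes tested (0%, edgeR quasi-likelihood test with Benjamini-Hochberg adjustment). The lowest adjusted p was 0.168. Unadjusted p-values below 0.05 were found for 2164 genes (13.7%), 1108 with a positive difference (7.03%) and 1056 with a negative one (6.7%). Without male 1 at 100 mg/kg the number was 1293, and with the long-transcript share as a covariate 991. On the log2(FPKM + 0.1) scale, which uses another scaling, the split was 592 positive and 1326 negative. DESeq2 called 6 genes at an adjusted p below 0.05 (0.0383%), namely Hbp1, Rsc1a1, Rpl7l1, Etl4, Ckb and Nat14. A limma fit on log2(FPKM + 0.1) called 3 (0.023%), Hbp1, Etl4 and Rsc1a1. In edgeR fits that left out 1 library each, 12 of 16 called 0 genes. Without female 1 on vehicle 7 genes were called, Hbp1 and 6 neutrophil genes. Rsc1a1 was called without female 4 or male 2 at 100 mg/kg, and Hbp1 without male 3 on vehicle. The median log2 difference over all genes tested was -0.0029. The genes below are those with the smallest p-values in each direction, and none passed the adjusted threshold in the edgeR fit.

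Rsc1a1, which encodes a regulator of sodium-glucose cotransport, had the smallest p of all. Its level was 2.05 CPM (counts per M of library size, scaled by TMM) at the lowest, 3.69 at the median and 7.48 at the highest at 100 mg/kg, against 6.65, 8.62 and 10.4 CPM on vehicle. The 100 mg/kg libraries were the low ones, with 6 of 8 below the lowest vehicle library, and the groups overlapped. The log2 difference was -0.95 ± 0.19 (SE, adjusted p = 0.168), and it was -0.42 at 30 mg/kg. Rsc1a1 lies within Ddi2 on the same strand, so their reads could not be kept apart, and Ddi2 itself differed by -0.31 (unadjusted p = 0.0119). Hbp1, an HMG-box transcriptional repressor, measured 102, 109 and 116 CPM (lowest, median, highest) at 100 mg/kg, against 114, 130 and 140 CPM on vehicle. Here too 6 of 8 treated libraries lay below every vehicle library. The log2 difference of Hbp1 was -0.22 ± 0.04 (adjusted p = 0.168). Hbp1 overlaps Cog5 on the opposite strand, and whether the counts use strand is not stated. Etl4, the mouse sickle tail gene known from intervertebral disc development, had 109, 145 and 184 CPM at 100 mg/kg and 164, 192 and 225 CPM on vehicle, with 7 of 8 treated libraries below the vehicle range (log2 -0.39 ± 0.08, adjusted p = 0.2).

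Cpt1a, the carnitine palmitoyltransferase that admits long-chain fatty acids to mitochondria in liver and many other tissues, was measured at 15.2, 18.7 and 23.8 CPM at 100 mg/kg, against 21.1, 28.4 and 36.7 CPM on vehicle. The groups overlapped, with 6 of 8 treated libraries below the vehicle range. Its log2 difference was -0.60 ± 0.14 (adjusted p = 0.286). In vehicle mice Cpt1a was higher than in wild type, by 1.14 on the log2 scale (adjusted p = 1.3e-07). Cpt1b, the muscle isoform of the same enzyme, showed 294, 338 and 379 CPM at 100 mg/kg and 312, 340 and 365 CPM on vehicle, fully overlapping ranges. The other genes on the negative side were Pcgf5 (a Polycomb RING finger protein), Btbd9, Lin54 (a DNA-binding subunit of the DREAM complex), Stk11ip (a partner of the kinase LKB1), Rhobtb1 (a BTB domain protein) and Lama2 (the laminin alpha chain of the muscle basement membrane). Their log2 differences ran between -0.35 for Rhobtb1 and -0.21 for Pcgf5, each with an adjusted p of 0.286. Lama2 measured 64.8, 80.0 and 90.0 CPM at 100 mg/kg, against 81.8, 98.6 and 113 CPM on vehicle (log2 -0.32 ± 0.08).

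On the positive side, Rpl7l1, a ribosomal protein L7-like factor of ribosome assembly, had 41.5, 44.4 and 48.7 CPM at 100 mg/kg and 35.8, 39.3 and 40.5 CPM on vehicle. All 8 treated libraries lay above all 8 vehicle libraries. The difference was small, at 0.19 ± 0.04 on the log2 scale (adjusted p = 0.2). Ckb, the brain-type creatine kinase, measured 5.62, 9.25 and 13.8 CPM at 100 mg/kg, against 4.30, 5.01 and 7.25 CPM on vehicle. The treated libraries were high and 5 of 8 lay above the vehicle range (log2 0.75 ± 0.16, adjusted p = 0.23). Ckb differed by 1.18 in males and by 0.27 in females, a sex difference that did not pass the test. Fblim1, a filamin-binding adaptor of cell adhesions, had 2.02, 2.34 and 3.44 CPM at 100 mg/kg and 1.15, 1.76 and 2.03 CPM on vehicle, with 7 of 8 treated libraries above the vehicle range (log2 0.56 ± 0.14, adjusted p = 0.286).

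Mylpf, the regulatory light chain of fast skeletal myosin, was the most abundant of these genes. It measured 3204, 3573 and 4249 CPM at 100 mg/kg, against 2539, 3085 and 3565 CPM on vehicle, with 4 of 8 treated libraries above the vehicle range. Its log2 difference was 0.25 ± 0.06 (adjusted p = 0.286). In vehicle mice the gene was lower than in wild type by a log2 difference of -1.69. Fbxl22 (an F-box protein), Fuk (fucokinase), Rab29 (a small GTPase), Gnptg (a subunit of the enzyme that tags lysosomal proteins with mannose phosphate), Lrrc38 (an auxiliary subunit of BK potassium channels) and Acy1 (an aminoacylase) made up the rest. Their log2 differences ran between 0.27 for Rab29 and 0.55 for Fbxl22. With the long-transcript share as a covariate, added after seeing the data, the differences of all 20 genes kept their sign. Gnptg then differed by 0.17 instead of 0.29, Rab29 by 0.18 instead of 0.27 and Mylpf by 0.16 instead of 0.25.

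**Figure D1:**
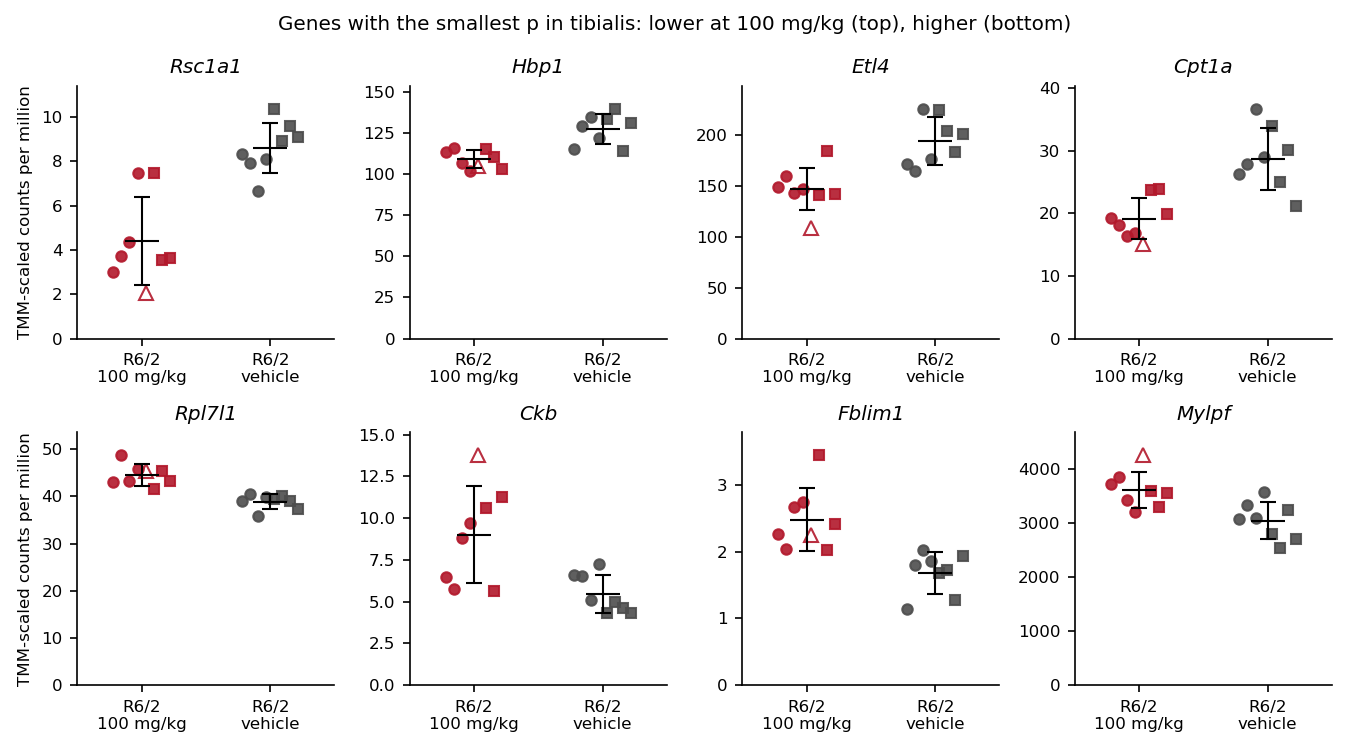
Levels of 8 leading genes in each tibialis library in CPM, with 100 mg/kg left of vehicle; circles are females, squares males, the open triangle is male 1 at 100 mg/kg, and bars give mean ± SD (n = 8 each). The groups of Rpl7l1 are separate, with 41.5 CPM as the lowest treated and 40.5 CPM as the highest vehicle library, whereas the other 7 genes overlap.

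The targets of the inhibitor were transcribed at different levels in this muscle. Hdac5 was the most abundant class IIa deacetylase per transcript length, at a mean of 24.7 ± 2.56 FPKM at 100 mg/kg and 25 ± 4.36 FPKM on vehicle. Hdac7 and Hdac4 came next, within their spread of each other on vehicle. Hdac7 had 9.15 ± 1.51 FPKM at 100 mg/kg and 9.35 ± 1.16 FPKM on vehicle, and Hdac4 had 7.5 ± 1.94 FPKM at 100 mg/kg and 9.77 ± 1.24 FPKM on vehicle. Hdac9 was lowest, with 2.63 ± 0.315 FPKM at 100 mg/kg and 2.56 ± 0.545 FPKM on vehicle (SD, n = 8 each). Of the 4, Hdac4 alone had an unadjusted p below 0.05. Its level was 26.3, 39.6 and 46.1 CPM (lowest, median, highest) at 100 mg/kg, against 41.2, 46.6 and 54.5 CPM on vehicle. The treated libraries were low, 6 of 8 below the vehicle range. The log2 difference was -0.29 ± 0.09 (unadjusted p = 0.00227, adjusted 0.299). Without male 1 it was -0.22, and with the long-transcript share as a covariate -0.16. Hdac5 differed by -0.08 ± 0.08 (-0.04 without male 1) and Hdac9 by 0.08 ± 0.14 (0.13 with the covariate). For Hdac7 the fit gave a difference that rounded to -0.00 ± 0.07.

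The MEF2 factors, which class IIa deacetylases bind, showed the same small negative sign for all 3 tested members. Mef2c had 553, 760 and 870 CPM at 100 mg/kg, against 783, 838 and 940 CPM on vehicle, and 5 of 8 treated libraries were below the vehicle range (log2 -0.20 ± 0.07, unadjusted p = 0.0042, adjusted 0.299). Mef2d differed by -0.18 ± 0.06 (adjusted p = 0.299) and Mef2a by -0.12 ± 0.07 (adjusted p = 0.431). Without male 1 these became -0.14 for Mef2c, -0.12 for Mef2d and -0.07 for Mef2a. With the long-transcript share as a covariate they were -0.12, -0.10 and -0.02 in the same order. Among 34 genes that MEF2 is known to activate in striated muscle, 3 had an unadjusted p below 0.05 with a positive difference and 0 with a negative one, beside 7.03% and 6.7% of all genes, and the list's median was 0.05. The positive count is close to that share, and it was 1 with the long-transcript share as a covariate, beside 2.86% of all genes. Acta1, the alpha actin of skeletal muscle, was the leading member at 3515, 5546 and 6852 CPM at 100 mg/kg, against 3023, 4164 and 5434 CPM on vehicle. The ranges overlapped, with 5 of 8 treated libraries above the vehicle range (log2 0.35 ± 0.11, adjusted p = 0.299). Pgam2, the muscle phosphoglycerate mutase, differed by 0.21 ± 0.08 and Slc2a4, the insulin-responsive glucose transporter, by 0.12 ± 0.06. The Pgam2 difference was 0.07 with the long-transcript share as a covariate.

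Genes downstream of Hdac4 in denervated muscle showed no common direction. The transcriptional corepressor gene Dach2 measured 0.200, 1.87 and 2.74 CPM at 100 mg/kg, against 0.154, 1.31 and 1.94 CPM on vehicle (log2 0.24 ± 0.46, adjusted p = 0.837; 0.51 with the long-transcript share as a covariate). Myog (myogenin) had 5.89, 9.35 and 14.5 CPM at 100 mg/kg and 6.31, 8.33 and 12 CPM on vehicle, with overlapping ranges (log2 0.16 ± 0.22, adjusted p = 0.757). Its difference was 0.04 without male 1 and turned to -0.16 with the long-transcript share as a covariate. Chrna1, the alpha subunit of the muscle acetylcholine receptor, differed by -0.12 ± 0.11 (adjusted p = 0.619; -0.19 with that covariate), although in vehicle mice it was 2.24 higher than in wild type on the log2 scale. None of 14 receptor and endplate genes had an unadjusted p below 0.05. Of 23 myogenic and denervation-response genes, 0 had one with a positive and 4 with a negative difference, beside 7.03% and 6.7% of all genes, while the list's median was 0.12. Without male 1 the counts were 1 and 2, beside 4.39% and 3.78% of all genes. Ampd3, an AMP deaminase gene that denervation induces, led the 4 with 32.8, 43.2 and 48.2 CPM at 100 mg/kg and 42.5, 50.6 and 59.3 CPM on vehicle (log2 -0.26 ± 0.08, adjusted p = 0.299).

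Of 24 atrophy and FOXO genes, 6 had an unadjusted p below 0.05 with a negative difference and 0 with a positive one, beside 6.7% and 7.03% of all genes, and the median was -0.08. Without male 1 the negative count was 3 (Fbxo32, Foxo4 and Cblb), beside 3.78% of all genes. With the long-transcript share as a covariate these 3, Trim63, Map1lc3b, Gabarapl1, Psmd11 and Sqstm1 were negative at this level, beside 3.43% of all genes. Fbxo32 encodes atrogin-1, a muscle ubiquitin ligase that marks atrophy. It measured 151, 239 and 309 CPM at 100 mg/kg, against 265, 335 and 405 CPM on vehicle. The treated libraries were low, with 6 of 8 below the vehicle range and male 1 lowest of all. The log2 difference was -0.50 ± 0.14 (unadjusted p = 0.000937, adjusted 0.286). It was -0.51 in males and -0.49 in females. It came to -0.41 without male 1 and -0.46 with the long-transcript share as a covariate. At 30 mg/kg Fbxo32 differed by -0.37. Vehicle and wild-type muscle differed in Fbxo32 by 0.08 (adjusted p = 0.683). Trim63, which encodes the ubiquitin ligase MuRF1, had 114, 147 and 234 CPM at 100 mg/kg and 134, 156 and 361 CPM on vehicle, largely overlapping (log2 -0.36 ± 0.17, adjusted p = 0.35). Without male 2 on vehicle Trim63 differed by -0.19. Cblb (a ubiquitin ligase) differed by -0.22, Fbxo30 (MUSA1) by -0.17 (-0.09 with the long-transcript share as a covariate) and Foxo4 (a FOXO factor) by -0.15. The proteasome itself gave 1 gene on each side among 31 subunits.

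**Figure D2:**
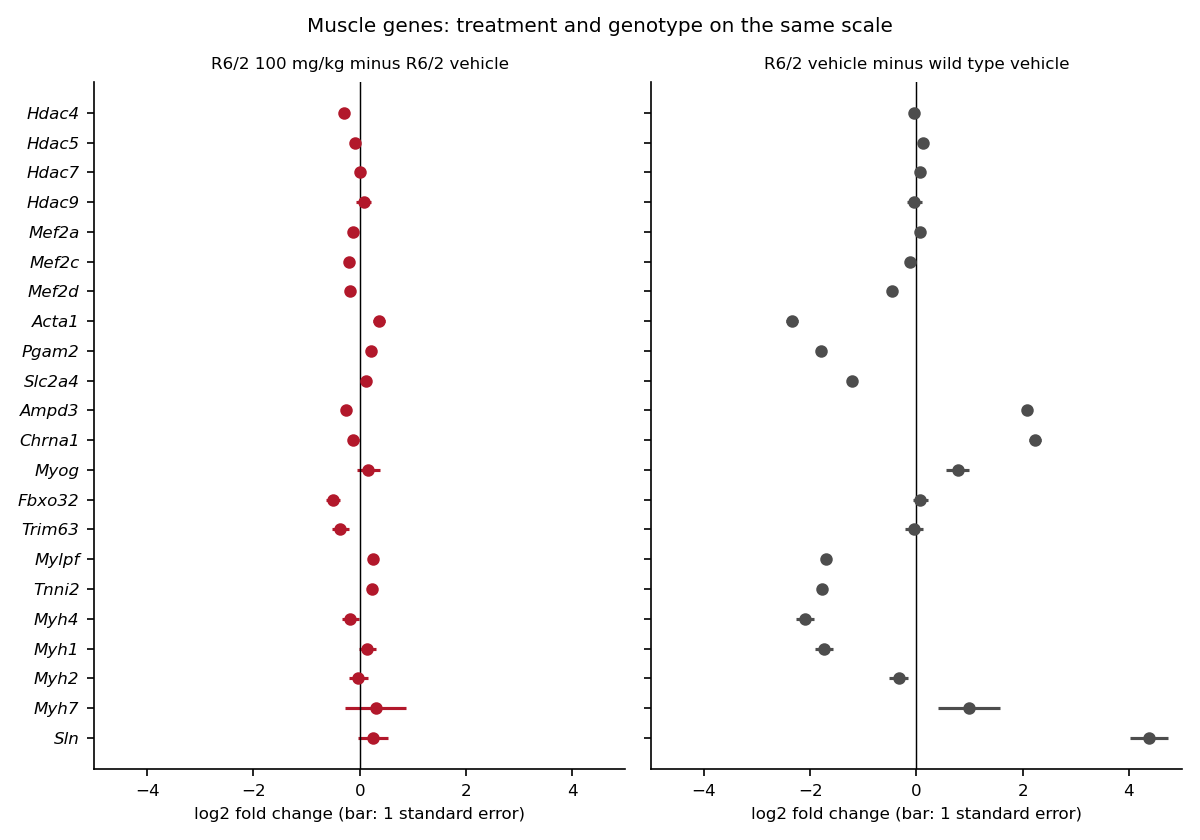
Log2 differences of deacetylase, MEF2, denervation, atrophy and contractile genes in tibialis, with 100 mg/kg minus R6/2 vehicle in the left panel and R6/2 vehicle minus wild type in the right; points are edgeR estimates and bars ± 1 SE. Acta1 stands at 0.35 in the left panel and -2.34 in the right, whereas Fbxo32 stands at -0.50 in the left and 0.08 in the right.

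Of 22 fast-fibre genes, 6 had an unadjusted p below 0.05 with a positive and 1 with a negative difference, beside 7.03% and 6.7% of all genes, and the median was 0.01. With the long-transcript share as a covariate 2 had a positive one, beside 2.86% of all genes, and with the tag 3, beside 4.9%. Besides Mylpf these included Tnni2, the fast troponin I, at 0.23 ± 0.08, and Tnnc2, the fast troponin C, at 0.19 ± 0.08, which were 0.14 and 0.06 with the long-transcript share as a covariate. The fast myosin heavy chains differed by amounts close to or below their standard errors, Myh4 by -0.18 ± 0.16, Myh1 by 0.14 ± 0.16 and Myh2 by -0.02 ± 0.18. Myh4 turned to 0.05 and Myh2 to 0.05 with that covariate, and Myh1 became 0.33. No slow-fibre gene of 12 had an unadjusted p below 0.05. The list's median was 0.29. Myh7 ranged widely in both groups, with 30.1, 93.6 and 226 CPM at 100 mg/kg, against 17.3, 69.2 and 208 CPM on vehicle (log2 0.30 ± 0.58; 0.56 with that covariate). Sln, sarcolipin, differed by 0.25 ± 0.28 (0.06 with that covariate), and Ppargc1a, the coactivator of mitochondrial biogenesis, by 0.01 ± 0.11.

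Nuclear genes for respiratory chain subunits differed little in size but all in one direction. Of 39 genes, 30 had an unadjusted p below 0.05 with a positive difference, beside 7.03% of all genes, and 0 passed the adjusted threshold. All 39 differences were positive, between 0.06 and 0.37 on the log2 scale, with a median of 0.19. Ndufv2 of complex I measured 271, 305 and 412 CPM at 100 mg/kg, against 253, 272 and 303 CPM on vehicle (log2 0.21 ± 0.07, adjusted p = 0.299). Cyc1 of complex III differed by 0.22 ± 0.07 and Sdhb of complex II by 0.21 ± 0.07. Atp5g1, a subunit of ATP synthase, had 326, 372 and 566 CPM at 100 mg/kg and 282, 325 and 371 CPM on vehicle, and its highest value came from male 1. In each of these 4 genes the groups overlapped. The library of male 1 and the long-transcript share moved with this list. That share is computed from the same counts and its mean differed between the groups. As a covariate it can take up part of the group difference, so that fit is no independent check. Without male 1, 13 of 39 genes had an unadjusted p below 0.05 with a positive difference, beside 4.39% of all genes, and the median was 0.11. With the long-transcript share as a covariate, 1 gene did, beside 2.86% of all genes, the median was 0.05 and 4 genes turned negative. With the library tag as a covariate the count was 17, beside 4.9% of all genes. The 13 genes of the mitochondrial genome had a median of 0.08, with 1 unadjusted p below 0.05.

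**Figure D3:**
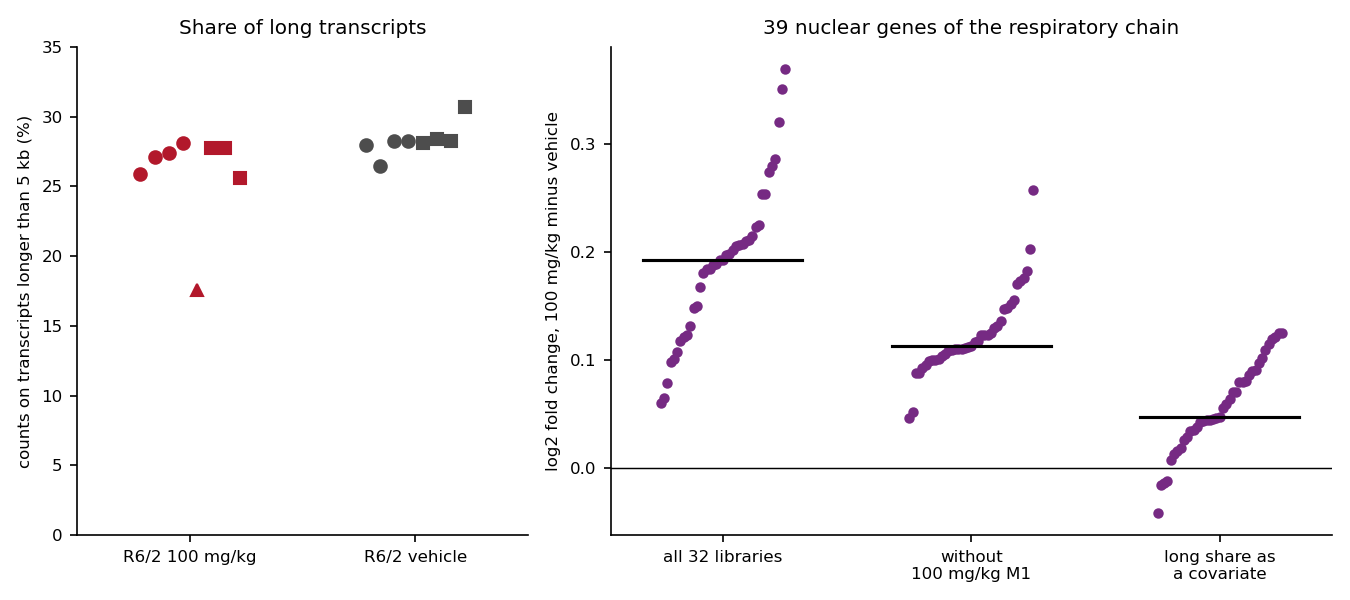
The left panel shows the long-transcript share of each library (percent of non-mitochondrial counts, 100 mg/kg left of vehicle, triangle for male 1). It counts genes whose longest annotated transcript exceeds 5000 bases. The right panel shows log2 differences of 39 respiratory chain genes in 3 settings, with a line at the median. The median is 0.19 with all libraries, 0.11 without male 1 and 0.05 with the long-transcript share as a covariate.

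Energy metabolism outside the respiratory chain gave fewer small p-values. Among 22 glycolysis and glycogen genes, 3 had one with a positive difference and 0 with a negative one, at a median of 0.05, beside 7.03% and 6.7% of all genes. Besides Pgam2 these were Tpi1 (0.11 ± 0.05) and Gapdh (0.18 ± 0.09). Of 30 fatty acid oxidation genes and PPAR targets, 1 had a positive difference at this level, Etfb of the electron transfer flavoprotein at 0.19 ± 0.08. Cpt1a, with a log2 difference of -0.60, is not on this list. With the long-transcript share as a covariate, Tpi1 differed by 0.07, Gapdh by 0.06 and Etfb by 0.05, and 0 glycolysis genes had an unadjusted p below 0.05. Polyamine metabolism (11 genes) and the glucocorticoid response (21 genes) had none in either direction.

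Circadian clock genes differed in both directions. In textbook outline, BMAL1 (gene Arntl) pairs with CLOCK or NPAS2 and activates through E-boxes the Per and Cry repressors, the nuclear receptors Nr1d1 and Nr1d2 and the output factors Dbp, Tef and Hlf, which in turn bind D-boxes. Of 19 clock genes, 4 had an unadjusted p below 0.05 with a positive and 11 with a negative difference, beside 7.03% and 6.7% of all genes. The list's median was -0.32, and 0 genes passed the adjusted threshold.

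E-box CACGTG and D-box TTATGTAA were searched on both strands in the 250 bases before each RefSeq gene start (GRCm38.p6). E-boxes occur in 6.02% of all 32851 windows and D-boxes in 0.819%. Of the 16 clock genes with a window, 5 hold an E-box and 1 a D-box in any of their windows. These are counts of genes and the shares above are of windows, so the units differ. A match is a description of the letters and not of binding. The windows of Ciart, with 3 E-boxes, and Per3, with 2 D-boxes, are shown because they carry the most copies of either motif. Capitals mark the motifs, and both windows read 5′ to 3′ on the minus strand, chr3:95882229-95882478 for Ciart and chr4:151044666-151044915 for Per3.
Ciart: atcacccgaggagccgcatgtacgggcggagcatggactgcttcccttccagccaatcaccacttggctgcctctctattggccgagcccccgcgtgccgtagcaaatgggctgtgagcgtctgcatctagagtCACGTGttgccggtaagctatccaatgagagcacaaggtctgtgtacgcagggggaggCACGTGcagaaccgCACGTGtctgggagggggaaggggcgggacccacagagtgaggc
Per3: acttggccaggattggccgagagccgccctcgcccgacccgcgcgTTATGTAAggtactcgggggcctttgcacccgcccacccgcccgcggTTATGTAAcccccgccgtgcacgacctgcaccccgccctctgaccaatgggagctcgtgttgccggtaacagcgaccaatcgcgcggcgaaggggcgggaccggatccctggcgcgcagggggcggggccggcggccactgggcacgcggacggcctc

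Ciart, a repressor of CLOCK-BMAL1, had 0.792, 1.31 and 6.55 CPM (lowest, median, highest) at 100 mg/kg, against 2.84, 4.22 and 13.7 CPM on vehicle. The 4 treated females and male 1 were the low libraries, below every vehicle library, and the other 3 males overlapped with vehicle. The log2 difference was -1.31 ± 0.38 (unadjusted p = 0.0015, adjusted 0.299). Per3, a period gene, measured 21.1, 31.0 and 54.3 CPM at 100 mg/kg and 39.6, 52.0 and 61.0 CPM on vehicle, with 6 of 8 treated libraries below the vehicle range (log2 -0.64 ± 0.20, adjusted p = 0.299). Cry2, a cryptochrome, had 28.5, 31.3 and 47.6 CPM at 100 mg/kg, against 43.8, 48.1 and 58.9 CPM on vehicle. Again 6 of 8 treated libraries were below the vehicle range (log2 -0.49 ± 0.14, adjusted p = 0.289). Per2 differed by -0.68 ± 0.33 and Nr1d2 by -0.33 ± 0.09. Per1 (-0.36 ± 0.20) and Nr1d1 (-0.20 ± 0.13) did not reach an unadjusted p of 0.05. Cry1, the other cryptochrome, had the opposite sign to these repressors, at 0.21 ± 0.08 (unadjusted p = 0.0147, adjusted 0.332), and it differed by 0.31 in liver and 0.32 in heart.

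Dbp, Tef and Hlf had negative differences. Dbp measured 15.5, 30.6 and 45.5 CPM at 100 mg/kg, against 44.3, 51.8 and 63.7 CPM on vehicle. The treated females, at 15.5 to 27.1 CPM, were the lowest, and males 3 and 4 at 100 mg/kg lay within the vehicle range (log2 -0.82 ± 0.24, adjusted p = 0.299). Tef had 171, 233 and 268.9 CPM at 100 mg/kg and 269.6, 282 and 309 CPM on vehicle. All 8 treated libraries lay below all 8 vehicle libraries, though by a narrow margin (log2 -0.32 ± 0.11, adjusted p = 0.299). Hlf differed by -0.49 ± 0.20. Tef differed by -0.18, Nr1d2 by -0.21 and Per1 by -0.21 with the long-transcript share as a covariate. The activators Npas2, Arntl and Clock had positive differences. Npas2 had 1.1, 2.05 and 3.52 CPM at 100 mg/kg and 0.702, 0.947 and 1.52 CPM on vehicle, and 6 of 8 treated libraries were above the vehicle range (log2 1.04 ± 0.31, adjusted p = 0.299). Arntl measured 9.30, 20.7 and 31.4 CPM at 100 mg/kg, against 9.73, 11 and 17.1 CPM on vehicle (log2 0.70 ± 0.26, adjusted p = 0.322). Clock differed by 0.07 ± 0.15, and Nfil3, a repressor at D-boxes, by 0.46 ± 0.19.

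Clock transcripts follow the hour of the day, and the hour at which each mouse was sampled is not known, so the part of sampling hour in these differences was not tested. For Dbp, wild-type libraries spread more widely than either R6/2 group, between 20.1 and 109 CPM. Within the lower tag block, with 4 libraries at 100 mg/kg and 3 on vehicle, Dbp differed by -0.46, Cry2 by -0.25 and Ciart by -0.32. Within the higher block, also 4 and 3 libraries, they differed by -1.32, -0.74 and -1.63 in the same order. At 100 mg/kg the lower block holds female 4 and males 2, 3 and 4, the higher block females 1, 2 and 3 and male 1. Sex and tag are thus partly tied, and their parts in these values were not tested. Without male 1, 4 clock genes had an unadjusted p below 0.05 on the positive and 9 on the negative side, beside 4.39% and 3.78% of all genes. The counts were 4 and 7 with the long-transcript share as a covariate (2.86% and 3.43% of all genes) and 4 and 10 with the tag (4.9% and 4.39%). The same mice gave 3 and 10 of 19 in liver, with 1 gene called lower (median -0.44, beside 8.62% and 7.54% of all liver genes). They gave 4 and 6 of 19 in heart (median -0.28, beside 3.44% and 4.57% of all heart genes).

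**Figure D4:**
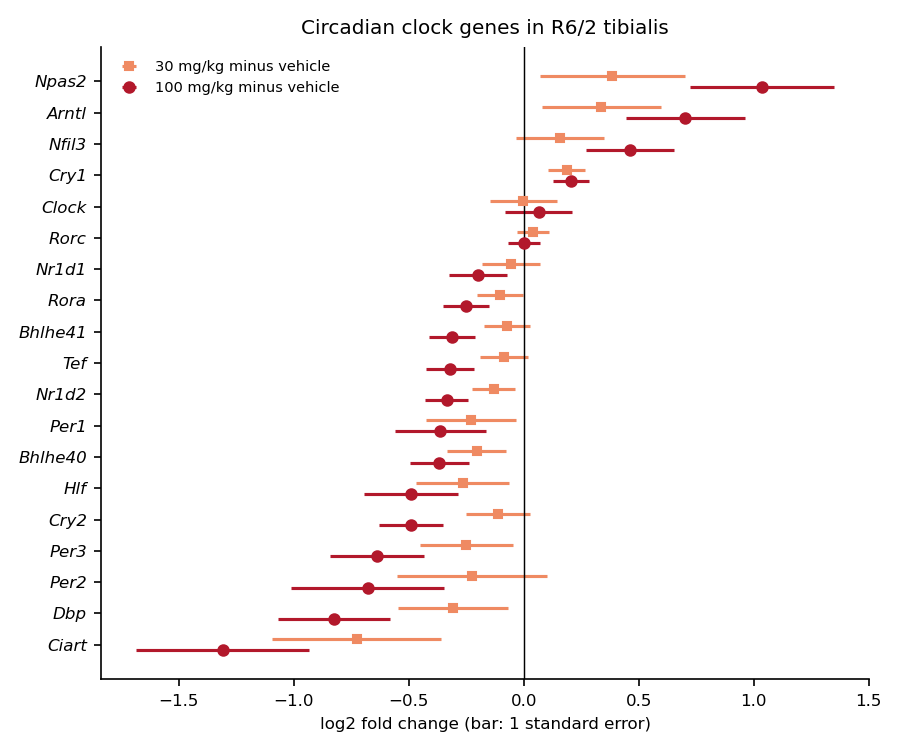
Log2 differences from R6/2 vehicle of 19 clock genes in tibialis at 30 mg/kg (squares) and 100 mg/kg (circles), with bars of ± 1 SE; both doses share the vehicle libraries. At 100 mg/kg the values run between -1.31 for Ciart and 1.04 for Npas2, and the medians are -0.10 at 30 mg/kg and -0.32 at 100 mg/kg.

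The lower dose gave no calls either. At 30 mg/kg, 0 of 15760 genes passed (0%), 631 had an unadjusted p below 0.05 (4%, of which 2.01% positive and 1.99% negative) and the lowest adjusted p was 0.96. DESeq2 also called 0 genes at this dose. Between 100 and 30 mg/kg, 0 genes passed in edgeR and 1177 (7.47%) had an unadjusted p below 0.05. DESeq2 called 1 gene there, Flrt1, which encodes a leucine-rich transmembrane protein and differed by -0.88 (edgeR adjusted p = 0.492). A linear trend over vehicle, 30 and 100 mg/kg gave 0 calls among 15589 genes (0%), 2295 with an unadjusted p below 0.05 (14.7%) and a lowest adjusted p of 0.119, for Cry2. Its log2 slope was -0.49 per 100 mg/kg. DESeq2 called 62 genes for the trend. The trend and both doses share the vehicle libraries. Respiratory chain genes had a median of 0.07 at 30 mg/kg and 0.19 at 100 mg/kg, with 0 and 30 of 39 unadjusted p-values below 0.05. Clock genes gave 1 positive and 0 negative at 30 mg/kg. Pop4, a subunit of ribonuclease P, had the smallest p at 30 mg/kg, with a difference of 0.43 at 30 mg/kg and 0.13 at 100 mg/kg.

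The effect of 100 mg/kg differed between the sexes for 1 of 15760 genes (0.00635%), while 1904 (12.1%) had an unadjusted p below 0.05 for this difference. The gene was Igfn1, which encodes an immunoglobulin-like and fibronectin domain protein of the Z-disc of skeletal muscle. In males it measured 6.49, 7.43, 8.09 and 9.04 CPM at 100 mg/kg, against 23.3, 24.05, 25.4 and 35.4 CPM on vehicle. In females it measured 12.4, 25.5, 27.5 and 39.4 CPM at 100 mg/kg, against 11.4, 17.9, 21.95 and 25.6 CPM on vehicle. The male groups were apart and the female groups overlapped. The log2 difference was -1.80 in males and 0.45 in females, and male minus female was -2.25 ± 0.39 (adjusted p = 0.049). The call lies at the threshold: with RLE scaling the adjusted p was 0.0591 and 0 genes passed, and DESeq2 called 10 genes. Next by p came the endothelial receptor Kdr (-0.43 in males, 0.38 in females), the endothelial protocadherin Pcdh12 (-0.86 and 0.32), the neutrophil oxidase subunit Ncf1 (1.06 and -0.56) and the 5-lipoxygenase activator Alox5ap (0.99 and -0.38), each with an adjusted p of 0.26 for the difference. Of the males at 100 mg/kg 1 library carries a tag from the higher block, and of the females 3 do, so sex and tag are partly tied in that group. On vehicle, the 2 libraries with a D suffix are males 2 and 4, so sex and tag are partly tied there too. The part of the tag in these sex differences was not tested.

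**Figure D5:**
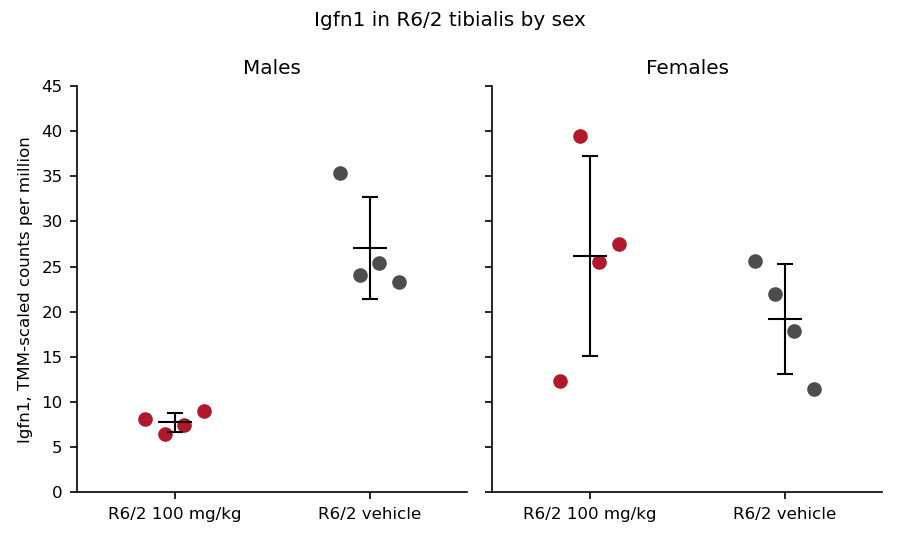
Igfn1 in tibialis in CPM by sex, with 100 mg/kg left of vehicle; points are mice and bars mean ± SD (n = 4 each). The 4 males at 100 mg/kg sit between 6.49 and 9.04 CPM, below the lowest vehicle male at 23.3 CPM.

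Lists for other cell types and for stress gave mixed counts. In bulk muscle, fewer cells of a type and less RNA per cell cannot be told apart. Of 10 endothelial markers, 5 had an unadjusted p below 0.05 with a negative difference and 0 with a positive one (median -0.12). The shares of all genes were 6.7% and 7.03%. With the long-transcript share as a covariate 3 markers were negative at this level, beside 3.43% of all genes. The summed level of the markers was 502 to 590 CPM at 100 mg/kg and 485 to 726 CPM on vehicle. Pecam1 had 86.4, 90.2 and 94.0 CPM at 100 mg/kg, against 80.3, 107 and 128 CPM on vehicle (log2 -0.24 ± 0.07, adjusted p = 0.299). All treated values lay inside the vehicle range, which was the wider. Cdh5, the endothelial cadherin, averaged 97.4 ± 7.31 CPM at 100 mg/kg and 134 ± 11.3 CPM on vehicle in males, and 110 ± 7.58 CPM at 100 mg/kg and 111 ± 19.6 CPM on vehicle in females (SD, n = 4 each, edgeR adjusted p = 0.307 for the sex difference). Fibroblast and matrix genes gave 3 of 16 with a positive difference (0 with the long-transcript share as a covariate), among them Postn (periostin) at 15.3, 104 and 264 CPM at 100 mg/kg and 23.7, 58.5 and 86.8 CPM on vehicle. Postn differed by 1.65 in males and 0.12 in females, a sex difference that did not pass. Of 7 smooth muscle markers, Acta2 (0.39 ± 0.13) and Tagln (0.27 ± 0.11) had positive differences at this level, which were 0.25 and 0.15 with that covariate. Adipocyte (8 genes tested), erythroid (6), leukocyte (19) and Schwann cell (9) markers gave 1 gene each with a positive difference, beside 7.03% of all genes. Satellite cell markers (7) gave 1 with a negative one (Pax7, -0.29 ± 0.12), beside 6.7% of all genes, and tendon markers (6) gave 0.

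Cyp1a1, the classic target of the aryl hydrocarbon receptor, led the xenobiotic list, in which 3 of 13 genes had positive differences at an unadjusted p below 0.05, beside 7.03% of all genes. Of the 13, 5 differences were positive and 8 negative, with a median of -0.04. Cyp1a1 measured 0.0703, 1.71 and 8.56 CPM at 100 mg/kg, against 0.148, 0.43 and 1.6 CPM on vehicle. The spread was wide, with 5 of 8 treated libraries above the vehicle range and 1 below it (log2 2.01 ± 0.58, adjusted p = 0.299). The Cyp1a1 value was 1.06 on the log2(FPKM + 0.1) scale, 0.51 on the log2(FPKM + 1) scale and 1.29 without male 2 at 100 mg/kg. In vehicle mice Cyp1a1 was lower than in wild type by a log2 difference of -1.74, and at 30 mg/kg it differed by 0.37. The immediate early genes Egr1 (-1.26 ± 0.44) and Fosb (-1.39 ± 0.63) rested on male 2 on vehicle, where Egr1 was 69.1 CPM beside at most 7.80 CPM in the other 7 vehicle libraries. Without that library Egr1 differed by -0.11 and Fosb by 0.19, and with the tag as a covariate by -0.21 and -0.10. Heat shock proteins gave 3 positive and 1 negative among 19 genes, the unfolded protein response 2 and 1 among 17, and the interferon response 2 and 0 among 20, led by Irf7 at 0.32 ± 0.11. The positive counts of these 3 lists were 0, 0 and 1 with the long-transcript share as a covariate, beside 2.86% of all genes.

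Muscle at 100 mg/kg was also set against wild-type muscle. With an adjusted p below 0.05, 7171 of 15760 genes were called (45.5%), 3607 higher (22.9%) and 3564 lower (22.6%). For R6/2 vehicle against wild type 7228 were called (45.9%), 23.6% higher and 22.2% lower. The number called at 100 mg/kg depends on the unit, and a limma fit on log2(FPKM + 0.1) called 11296, where the median of all genes stood at 0.61 instead of 0.03. The comparisons share the wild-type libraries, so their values are given side by side. Fast-fibre genes had 21 of 22 called lower at 100 mg/kg and 21 of 22 on vehicle, with medians of -1.6 and -1.78. Respiratory chain genes had 27 of 39 called lower at 100 mg/kg and 36 of 39 on vehicle, with medians of -0.36 and -0.56. Clock genes had 13 of 19 called lower at 100 mg/kg and 7 of 19 on vehicle, with medians of -0.65 and -0.45. All 20 interferon genes were called higher in both.

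The same 16 mice had liver and heart libraries. In liver, 308 of 14931 genes were called between 100 mg/kg and vehicle (2.06%), and in heart 2 of 15812 (0.0126%). Of the 308 liver genes, 269 were tested in tibialis, where 15 had an unadjusted p below 0.05 with a positive and 17 with a negative difference and 0 passed the adjusted threshold. These counts are near the shares among all genes in tibialis, 7.03% and 6.7%. The difference of the effect between tibialis and liver passed for 15 of 16564 genes (0.0906%), with 4 more positive and 11 more negative in tibialis. Those 11 included Cpt1b, which differed by -1.06 ± 0.14 between the tissues (adjusted p = 0.00254), from a log2 difference of -0.00 in tibialis and 1.05 in liver. Ehhadh, the peroxisomal bifunctional enzyme, differed by -1.33 ± 0.18 (adjusted p = 0.00327), from 0.06 in tibialis and 1.41 in liver. Map1a, a microtubule-associated protein, differed by -2.48 ± 0.30 (adjusted p = 0.00232). P2rx6, a purinergic receptor, differed by -1.77 and Serinc2, of the serine incorporator family, by -1.1. A limma-voom fit called 41 genes.

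Between tibialis and heart the effect differed for 0 of 16326 genes (0%), with 539 (3.3%) at an unadjusted p below 0.05, and limma-voom also called 0. The 2 genes called in heart were Manf, a secreted factor of endoplasmic reticulum stress, and Ighd, an immunoglobulin heavy chain constant region. In tibialis Manf measured 11.6, 14.1 and 20.4 CPM at 100 mg/kg, against 10.5, 11.6 and 14.2 CPM on vehicle, with overlapping groups (log2 0.29 ± 0.10, adjusted p = 0.304; 0.12 with the long-transcript share as a covariate). Angpt1, a ligand of the endothelial receptor Tek, had the smallest p for the difference between the muscles. It measured 35.6, 45.9 and 61.9 CPM at 100 mg/kg, against 51.2, 68.4 and 78.0 CPM on vehicle in tibialis (log2 -0.51 ± 0.14, adjusted p = 0.286), and tibialis minus heart was -0.87 ± 0.20 (adjusted p = 1).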

How the data were processed

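RNA was sequenced from 5 tissues of 32 mice in 4 arms, 160 libraries. Per the file headers the authors deposited one table of expected counts per gene and one of FPKM values per gene (fragments per kilobase, scaled to library size), with no pooled columns. CASAVA 1.8.2 is named per the submitters' processing notes, and no aligner, genome build or strand setting is named there. The expected counts were rounded to whole numbers, since 68.7% of tibialis values were whole.

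Genes were filtered by filterByExpr, scaled by TMM and fitted over all 32 tibialis libraries with arm and sex (edgeR 4.0.16, quasi-likelihood), with Benjamini-Hochberg adjustment over all genes tested and a threshold of 0.05. Tissue differences used mouse as a block. DESeq2 1.42.0, limma 3.58.1, RLE scaling, no filter, FPKM with pseudocounts of 0.1 and 1 and a mean of at least 0.5, covariates and omitted libraries were alternatives. Covariates for long transcripts, hepatocyte transcripts and library tag, and the hepatocyte, neutrophil and bone, and fatty acid synthesis lists, were chosen after seeing the data. Only the main edgeR fit was tested on simulated counts, drawn from the means and dispersions of the tibialis libraries. Genes named are the 10 smallest p-values per direction (mean log2 CPM of at least 1, no predicted genes), fixed genes, and up to 4 per list. The members, lists and rules were chosen with earlier results of these data known.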

Additional observations from a re-analysis of the deposited data

Results flagged for a closer look

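In 270 tests of a group of 8 libraries, 22 had a highest or lowest library whose gap to the nearest other exceeded the critical value of Dixon's test. Chance flags about 1 in 20 groups. Of the 22, 8 came from male 1 at 100 mg/kg. That library had 14.9 CPM of Gnptg (at most 11.8 in the other 7), 566 CPM of Atp5g1, 1617 CPM of Myh1, 26.4 CPM of Gsta4, 79.2 CPM of Hspe1, 10.2 CPM of Map1a and 0.964 CPM of Flrt1. Its long-transcript share was 17.6%.

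On vehicle, male 2 had 13.7 CPM of Ciart, 69.1 CPM of Egr1, 16.2 CPM of Fosb and 12253 CPM of mt-Nd2. Male 4 had 8.65 CPM of Irf7, 129 CPM of Arl5a, the largest total at 39.04 M and a long-transcript share of 30.7%. Female 1 on vehicle had 6.68 CPM of Camp, 25.9 CPM of S100a8, 157 CPM of neutrophil and bone transcripts and 1029.6 CPM of hepatocyte transcripts (both unscaled). Female 2 on vehicle had 394.9 CPM of Sdhb and female 4 had 58.4 CPM of Serinc2.

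Igfn1 stood out because the effect of 100 mg/kg differed between males and females, by -2.25 on the log2 scale. Whether library quality plays a part in these values was not tested.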

How the results depend on the processing

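The count of 0 genes called between 100 mg/kg and vehicle was also 0 with RLE scaling, no filter, limma-voom, unfiltered FPKM, the 2 groups alone and each covariate. It was 6 with DESeq2 and 3 with log2(FPKM + 0.1) or log2(FPKM + 1). Leaving out 1 library at a time gave 0 to 7. The 7 came without female 1 on vehicle (Hbp1, S100a8, S100a9, Chil3, Camp, Ngp and Ltf), and 1 gene each without female 4 or male 2 at 100 mg/kg (Rsc1a1) or male 3 on vehicle (Hbp1). The replicate block gave 0 genes, with a lowest adjusted p of 0.278. Same-numbered mice did not deviate together (correlations -0.51 to 0.08, 0 of 8 above 0.1, 0 best with their own number), so the numbers are names only. Between 100 and 30 mg/kg DESeq2 gave 1, and for the dose trend no filter gave 14 and DESeq2 62. The sex difference gave 0 with RLE scaling (Igfn1 -2.22, adjusted p = 0.0591) and 10 with DESeq2. Against wild type, log2(FPKM + 0.1) gave 11296. Tibialis against liver gave 41 with limma-voom. The causes were not tested.

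Of 106 named genes, 98 kept their sign in every alternative that gave a value (30 for most). Hdac7 was 0.0022 with RLE, 0.0024 with DESeq2, 0.0073 with limma-voom, 0.0173 with the mitochondrial share, 0.0057 with the 2 groups alone, 0.0056 with long transcripts, 0.0194 with the tag and 0.0012 without male 1 in the 2 groups alone (-0.0473 to 0.0413 leaving out 1 library). Myog was -0.15 with limma-voom and -0.16 with long transcripts, and Myh4 0.0468 with long transcripts. Myh2 was 0.0792 with limma-voom, 0.0385 with the mitochondrial share, 0.0522 with long transcripts, 0.0164 with the tag and 0.0833 without male 1 in the 2 groups alone (-0.14 to 0.0824). Ppargc1a was -0.0612 or -0.0541 with FPKM and -0.0040 with the block (-0.0566 to 0.0918). Nr4a1 was 0.12 with limma-voom and 0.0903 with the tag (-0.46 to 0.19), Camp -0.11 with the tag, and Fosb -1.86 to 0.19. Library totals were 33.4 to 39.04 M, and the effect of depth on the calls was not tested.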

Other observations

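Fatty acid synthesis genes, a list added after seeing the data, had 12 positive and 3 negative differences among 15 members, at a median of 0.38. None passed the adjusted threshold. An unadjusted p below 0.05 was found for 5 with a positive and 2 with a negative difference. The shares of all genes were 7.03% and 6.7%. The list was picked from these data, so its counts are no independent support. At 30 mg/kg it had 7 positive and 8 negative differences, at a median of -0.0082, and 0 unadjusted p-values below 0.05.

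Levels of hepatocyte genes and of neutrophil granule and bone genes were uneven across the tibialis libraries. The source of these transcripts was not tested. On the TMM scale, the 20 hepatocyte genes summed to 2.24 CPM at the lowest, 21.5 at the median and 283 at the highest at 100 mg/kg, against 0.340, 18.6 and 897 CPM on vehicle. The 10 neutrophil granule and bone genes tested, likewise a list added after seeing the data, summed to 3.03, 142 and 242 CPM at 100 mg/kg, against 1, 42.4 and 134 CPM on vehicle. All 10 had a positive difference (median 1.06). With all libraries S100a8 differed by 0.86 (edgeR adjusted p = 0.739) and Camp by 1.02 (adjusted p = 0.761). With the library tag as a covariate S100a8 differed by 0.055. Within the lower tag block it differed by 2.71, and by -0.10 within the higher block, which holds female 1 on vehicle. Without female 1 on vehicle both passed the threshold, S100a8 with a difference of 3.64 (adjusted p = 0.0493) and Camp with an adjusted p of 0.0314. Camp was at most 0.226 CPM in the other 7 vehicle libraries, and 5 of them had 0, so no fold is given for it.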
